A study of Homo sapiens with 16 samples.

Results

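The data described here are the RNA-sequencing libraries in which MYC was knocked down in MDA-MB-231 cells that lack TXNIP. They were chosen by their labels, knockout genotype and siRNA arm, and make up 6 of the 16 libraries of the series. MDA-MB-231 cells are an established line from a triple-negative breast cancer, and 231:TKO is the derivative in which TXNIP was disrupted with CRISPR/Cas9 and guides of the GeCKO v2 library, from clones grown out of single cells. There were 3 libraries of 231:TKO cells given a non-targeting siRNA (231:TKO+siNT) and 3 given an siRNA against MYC (231:TKO+siMyc), each for 48 hours. All 6 therefore share the knockout, the medium and the transfection, and the arms differ in the siRNA. A second set of 6 libraries, parental 231+siNT and parental 231+siMyc, with 3 of each, is used below as the counterpart with TXNIP intact.

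Myc is a transcription factor that pairs with Max and binds the E-box, a short DNA element whose canonical form is CACGTG. It is best known for raising the output of genes for ribosome production, nucleotide and polyamine synthesis and cell-cycle entry, and genes with roles in cell adhesion, matrix and lysosomes are commonly reported to be held down by it. Max also pairs with the Mxd proteins and Mnt, which repress, and a parallel branch of the network, MondoA (MLXIP) with Mlx, responds to glucose and switches on TXNIP.

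Total counts in genes ranged from 31848151 to 39527700 in the 6 libraries of 231:TKO. The median size of the log2 difference between 2 libraries over expressed genes was 0.0566 to 0.133 within an arm and 0.183 to 0.219 between arms, and the first principal component, with 70.4% of the variance, separated siNT from siMyc. In the parental set, siNT replicate 1 and siMyc replicate 3 stood apart, at a distance of 0.238 to 0.249 from the other libraries of their own arm but of 0.167 from each other, so parental fold changes are given below from a fit with a term for these 2 libraries, and from one without them where that is said. Levels are CPM, the counts of a gene scaled to a common library size after TMM scaling, listed in the order of replicates 1, 2 and 3, and fold changes are log2 values of siMyc over siNT. A gene is said to have risen or fallen where edgeR's quasi-likelihood test gave a Benjamini-Hochberg adjusted p of at most 0.05 over all genes tested. The study calls the replicates biological, but neither it nor the labels say that they came from separate cultures, so these p-values measure the spread between libraries, which may be technical.

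MYC (ENSG00000136997, GRCh38 chromosome 8, 127735434 to 127742951) stood at 126, 149 and 136 CPM in siNT and at 59.4, 59.5 and 58.9 CPM in siMyc. The siMyc libraries lay close together and all were below the lowest siNT library, with a mean at 43.3% of the siNT mean (log2 FC -1.21, SE 0.06, edgeR adjusted p = 1.69e-11). TXNIP, an arrestin-family protein that restrains glucose uptake and binds thioredoxin, had 7.04, 8.17 and 6.77 CPM in siNT and 9.60, 9.19 and 10.2 CPM in siMyc, no overlap but a low level in all 6. Its siNT mean was 2.47% of the 297 CPM in parental 231+siNT, a table scaled separately, and the remaining transcripts rose by a log2 FC of 0.40 (SE 0.10, edgeR adjusted p = 0.00247). Markers of the labelled cell type were present: VIM had a siNT mean of 1884 CPM, CD44 of 1001 CPM and AXL of 975 CPM. ESR1, expected to be low, had 0.0899 CPM and CDH1 had 0.806 CPM. The leukocyte and endothelial genes LYZ and VWF were at 1.04 and 0.200 CPM. ERBB2, also expected to be low, was expressed and rose after siMyc. Together with ESR1 it took 0.00859% of counts in siNT and 0.0103% in siMyc, almost all of it ERBB2. Of 17 markers of leukocytes, endothelium and luminal epithelium 8 had enough counts to be tested and 2 rose, the myeloid receptor CD14 from 4.68 to 8.86 CPM (log2 FC 0.92, SE 0.11) and the keratin KRT8 from 694 to 854 CPM (0.30, SE 0.06). Their summed share was 0.1003% to 0.1063% of counts in siNT and 0.111% to 0.130% in siMyc, nearly all of it keratin, and its part in the results below was not tested.

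Other genes of the Myc and Max network changed as well. MAX, the obligate partner, had 72.4, 71.6 and 71.2 CPM in siNT and 47.5, 47.9 and 49.5 CPM in siMyc, a fall to well under every siNT library (log2 FC -0.57, SE 0.05, edgeR adjusted p = 6.65e-08). MXD4, one of the repressors that compete for Max, went the other way, from 46.9, 47.7 and 43.0 CPM to 80.4, 74.8 and 69.0 CPM (log2 FC 0.70, SE 0.06, edgeR adjusted p = 4.04e-08). MXI1, also a Max-binding repressor, rose by 0.33 (SE 0.07), whereas MLX fell by 0.20 (SE 0.05) and MGA, a large Max-binding protein, fell by 0.17 (SE 0.06). Of the 15 network genes tested 3 rose and 4 fell. MNT, MXD1, MXD3, MLXIP, MLXIPL, MYCL, MYCN and ARRDC4, a relative of TXNIP, did not pass the test, with log2 FC from -0.30 for ARRDC4 to 1.58 for MYCN, which had at most 0.151 CPM in any library.

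Across the transcriptome 22450 genes were tested and 27.2% were called. Of all genes tested 13.3% were higher and 13.9% lower after siMyc, the background for each gene list below. Among genes with a mean of at least 1 CPM these shares were 20.9% and 22.2%, and most list members are of that kind. After TMM scaling, which assumes that most genes do not change, the changes were balanced in number and size. The median log2 FC was 0.01 over all genes, 0.35 among genes that rose and -0.35 among genes that fell. Such scaling favors a balance, and a change in total RNA per cell could not be seen. Of genes with a mean of at least 1 CPM, 54 rose and 49 fell by a log2 FC of 1 or more. In reads, genes that fell took 30.8% ± 0.215 (SD, n = 3) of all counts in siNT and 24.6% ± 0.198 (SD, n = 3) in siMyc, and genes that rose took 24.4% ± 0.332 and 30.1% ± 0.435, a description since the same libraries chose both sets. In 95.9% of called genes, and in 38.7% of tested genes, the libraries of the arms did not overlap. All values are relative to the library total, and in bulk RNA fewer cells with a transcript and less of it per cell cannot be told apart.

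**Figure D1:**
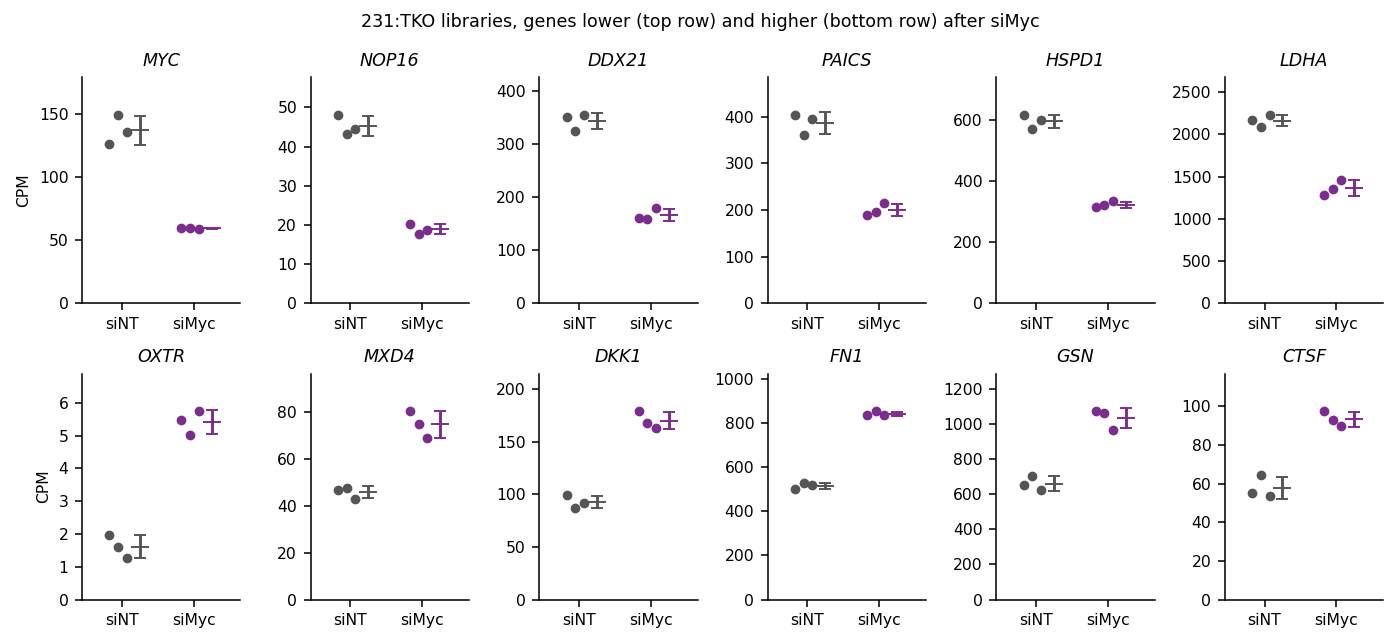
Level of 12 genes in the 6 libraries of 231:TKO, in CPM, with 1 point per library and bars for the mean ± SD of 3. MYC, NOP16, DDX21, PAICS, HSPD1 and LDHA sit lower in each siMyc library than in any siNT library, and OXTR, MXD4, DKK1, FN1, GSN and CTSF sit higher.

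Genes for building ribosomes were lower in nearly every case. Of 122 tested genes for ribosome biogenesis 115 fell and 0 rose, with a median log2 FC of -0.53 (all genes 0.01), and 7 did not pass the test. NOP16, a nucleolar factor of the large subunit, had 48.0, 43.2 and 44.4 CPM in siNT and 20.2, 17.7 and 18.8 CPM in siMyc. It had the deepest fall of the list (log2 FC -1.26, SE 0.07, edgeR adjusted p = 5.27e-11), and its highest siMyc library was below its lowest siNT library. DDX21, a nucleolar RNA helicase that links transcription by RNA polymerase I to rRNA processing, had 352, 326 and 355 CPM and then 161, 159 and 181 CPM (log2 FC -1.04, SE 0.06). NPM3, a relative of nucleophosmin, WDR3, of the small-subunit processome, and BYSL, which matures the small subunit, fell by 1.15, 1.13 and 1.08. The falls were alike in the 3 roles of the list: 44 of 48 genes of the small-subunit processome fell (median -0.54), 47 of 48 for large-subunit assembly (median -0.52) and 24 of 26 box C/D, box H/ACA and other nucleolar factors (median -0.51). NOLC1, a nucleolar phosphoprotein that chaperones small nucleolar RNPs, fell from 226 to 116 CPM. In reads the list went from 1.11% to 0.773% of the library, and with 3 libraries an arm the exact 2-sided permutation test of this share gave p = 0.1, the smallest it can give.

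Promoters of these genes were searched for the canonical E-box, since Myc and Max bind it. The search read the RefSeq promoters of GRCh38.p14, 250 bases before to 50 bases after each annotated start, for CACGTG, which reads the same on both strands and lies within the looser CANNTG. Of the 122 biogenesis genes 104 had a promoter in the table. The following stretches upstream of the start, in the direction of transcription, are of the 5 biogenesis genes with the deepest falls among those with the motif, which is in capitals.
DDX21 (chr10:68956594-68956643, plus strand): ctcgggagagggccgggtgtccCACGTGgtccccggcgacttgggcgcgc
EXOSC5 (chr19:41397421-41397470, minus strand): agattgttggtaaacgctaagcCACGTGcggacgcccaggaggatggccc
UTP20 (chr12:101280073-101280104, plus strand): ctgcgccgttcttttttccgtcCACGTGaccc
UTP4 (chr16:69132611-69132648, plus strand): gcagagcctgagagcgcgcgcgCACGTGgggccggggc
IMP4 (chr2:130342672-130342721, plus strand): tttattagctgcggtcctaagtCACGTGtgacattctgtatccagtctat

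EXOSC5, a subunit of the RNA exosome that trims rRNA, fell from 28.9 to 14.7 CPM (log2 FC -0.98, SE 0.08). UTP20, UTP4 and IMP4, of the small-subunit processome, fell by 0.76, 0.74 and 0.68. The distance from the motif to the start was 31 bases in DDX21, 89 in EXOSC5, 10 in UTP20, 16 in UTP4 and 203 in IMP4. CACGTG was present in 35.3% of biogenesis promoters (42 of 119), against 8.95% of the 18711 promoters of all tested genes and 7.26% of all 35116 promoters in the table. It was in 11.5% of promoters of genes that fell (379 of 3306), 8.44% of genes that rose (293 of 3473) and 8.40% of genes not called (1002 of 11932). Among genes that fell by 0.5 or more the share was 15.8%, and among genes that rose by as much it was 5.87%. Repressed and motif-bearing lists were not the same: cytosolic ribosomal protein promoters held it in 6.02%, mitosis promoters in 8.0%, whereas lysosome and autophagy promoters, a list of mostly induced genes, held it in 20.9% (19 of 91). Extracellular matrix and adhesion promoters held it in 3.88% and 1.82%. CANNTG was in 59.5% of promoters of genes that fell, 63.1% of those that rose and 63.7% of those not called. CACGTG is also the element of other factors of the same structural class, such as TFEB, USF1 and MondoA with Mlx, and a match is a description of the letters.
The next set shows the motif in genes of other functions that are described below, 4 repressed and 1 induced.
TAF4B (chr18:26226240-26226289, plus strand): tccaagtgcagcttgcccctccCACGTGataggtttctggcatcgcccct
HSPD1 (chr2:197500335-197500384, minus strand): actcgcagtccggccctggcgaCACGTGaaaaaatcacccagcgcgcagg
SRM (chr1:11060190-11060239, minus strand): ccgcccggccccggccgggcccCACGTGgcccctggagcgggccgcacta
LDHA (chr11:18394454-18394503, plus strand): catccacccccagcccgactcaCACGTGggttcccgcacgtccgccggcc
CTSF (chr11:66568630-66568679, minus strand): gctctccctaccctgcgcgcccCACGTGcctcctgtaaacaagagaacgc

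**Figure D2:**
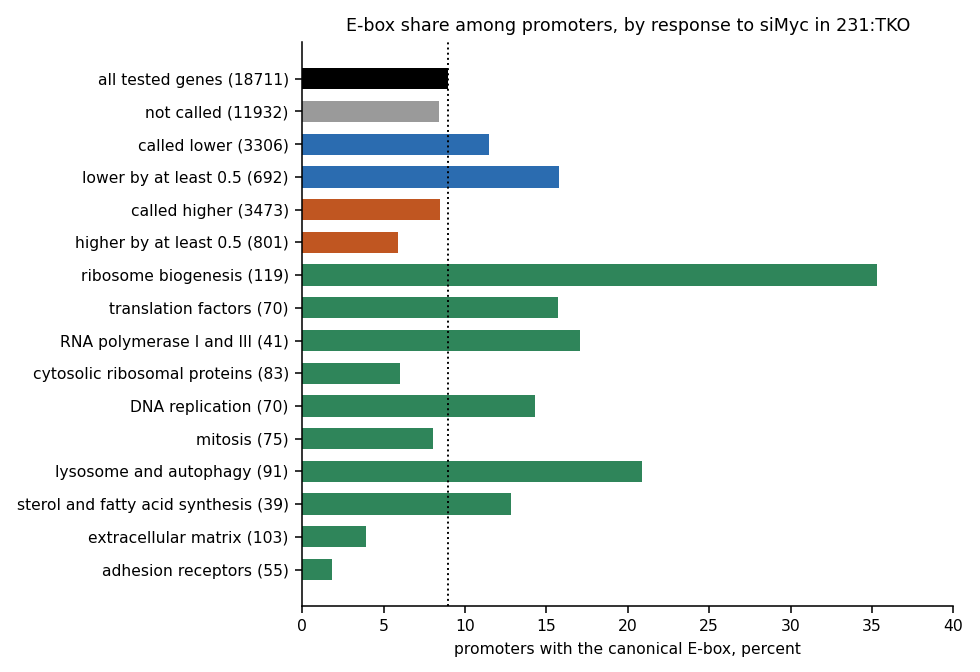
Share of promoters, in percent, that hold CACGTG, by call in 231:TKO and by gene list. Ribosome biogenesis reaches 35.3% and lysosome and autophagy 20.9%, and promoters of all tested genes stand at 8.95%.

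The ribosome's own proteins fell with its assembly factors. Of 84 cytosolic ribosomal protein genes 82 fell, 1 rose and 1 did not pass, with a median log2 FC of -0.44, and they went from 3.99% ± 0.105 (SD, n = 3) to 2.93% ± 0.0526 (SD, n = 3) of all counts. RPS2, a core protein of the small subunit, had 1104, 1094 and 1087 CPM in siNT and 649, 662 and 631 CPM in siMyc (log2 FC -0.76, SE 0.04, edgeR adjusted p = 1.12e-10). The spread within each arm was small beside the gap between them. RPL22L1, a paralog of RPL22, fell furthest (log2 FC -0.94, SE 0.07), followed after RPS2 by RPL32 (-0.73, SE 0.05) and RPL36A (-0.70, SE 0.05). RPS27L, a paralog of RPS27 that p53 is known to induce, rose from 59.2 to 66.1 CPM (0.16, SE 0.05), and RPL39L, a paralog of RPL39, had 28.6 CPM in siNT and 27.7 CPM in siMyc. Processed pseudogenes of ribosomal protein genes, whose reads can come from the parent gene, fell in 48 of 259 cases and rose in 0. The host genes of small nucleolar RNAs, which carry the guide RNAs of rRNA modification in their introns, had the lowest median of all lists (-0.59), with 25 of 29 lower and 1 higher. SNHG1 had 70.5, 68.6 and 67.1 CPM in siNT and 30.0, 31.7 and 30.9 CPM in siMyc (log2 FC -1.15, SE 0.06), and SNHG18 rose by 0.45 (SE 0.08). SNHG11, SNHG21 and SNHG31 did not pass, at means between 0.269 and 4.50 CPM.

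The polymerases that supply ribosomal and transfer RNA were repressed in 26 of 36 subunit and factor genes (median -0.29). For RNA polymerase I, which transcribes rRNA, 11 of 14 fell and 0 rose, among them POLR1E (log2 FC -0.91, SE 0.06), POLR1B, its second-largest subunit (-0.90, SE 0.06), and POLR1G (-0.74, SE 0.06). For RNA polymerase III, which transcribes tRNA and 5S rRNA, 15 of 22 fell and 2 rose. Its paralogous subunits moved in opposite directions: POLR3G, the form typical of stem and tumor cells, had 13.9, 12.6 and 13.8 CPM in siNT and 3.51, 3.71 and 5.57 CPM in siMyc. POLR3GL, the form of most tissues, had 16.2, 17.2 and 16.3 CPM and then 20.5, 21.2 and 21.1 CPM. Neither gene overlapped between arms, and the log2 FC was -1.65 (SE 0.12) for POLR3G and 0.34 (SE 0.07) for POLR3GL. MAF1, the repressor of RNA polymerase III, rose by 0.18 (SE 0.05). Downstream of these, 46 of 64 translation factors fell and 3 rose (median -0.26), with EIF4A1, the initiation helicase, at -0.65 (SE 0.06), EEF1B2, which recharges the elongation factor with GTP, at -0.63 (SE 0.05) and ABCE1, the ribosome-recycling ATPase, going from 179 to 91.6 CPM. PDCD4, an inhibitor of that helicase, rose by 0.54 (SE 0.07), and EIF4E2, a cap-binding repressor, by 0.20 (SE 0.05). Of 40 tRNA synthetase genes 22 fell and 0 rose (median -0.17), 15 of 23 cytosolic and 7 of 17 mitochondrial, led by FARSB and VARS1, the phenylalanine and valine enzymes, at -0.85 and -0.77. Mitochondrial ribosomal proteins had the smaller fall of the 2 ribosomes: 44 of 80 fell and 1 rose (median -0.20), with MRPL24 at -0.59 (SE 0.06) and MRPS6 at 0.24 (SE 0.06).

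Biosynthesis of nucleotides and polyamines fell in most of its enzymes. Of 38 nucleotide genes 30 fell and 1 rose (median -0.38), in 14 of 18 purine genes and 16 of 20 for pyrimidines and deoxynucleotides. PAICS, which carries out adjoining steps of purine synthesis, had 404, 360 and 396 CPM in siNT and 190, 195 and 216 CPM in siMyc, so that the highest siMyc library was far below the lowest siNT library (log2 FC -0.95, SE 0.06). DHODH and CTPS1, of the pyrimidine branch, and NME1, a nucleoside diphosphate kinase, fell by 0.93, 0.92 and 0.92. In polyamine synthesis 5 of 7 genes fell: spermidine synthase SRM had 118, 126 and 118 CPM in siNT and 56.7, 57.1 and 51.2 CPM in siMyc, and ornithine decarboxylase ODC1, the first and limiting enzyme, 112, 108 and 116 CPM and then 53.7, 56.8 and 60.9 CPM. The arms did not overlap for either gene, with log2 FC of -1.13 (SE 0.06) and -0.97 (SE 0.06). Of the 6 genes for polyamine breakdown and inhibition, OAZ2, an antizyme that marks ODC1 for destruction, rose by 0.18 (SE 0.05) and the other 5 did not pass. Of 30 serine and one-carbon genes 15 fell and 3 rose (median -0.29), with PSAT1, of serine synthesis, at -0.79 (SE 0.08), MTHFD1L, of mitochondrial folate metabolism, at -0.75 (SE 0.06) and AHCY, which clears S-adenosylhomocysteine, going from 267 to 148 CPM. Against these, the folate receptor FOLR1 rose from 2.86 to 5.56 CPM (0.96, SE 0.12) and ALDH1L1, which oxidizes formyl folate, by 0.73 (SE 0.10).

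Protein folding and turnover genes were also lower. Of 37 chaperones 28 fell and 1 rose (median -0.38), including 11 of 14 of the TRiC chaperonin and prefoldin and all 6 of the mitochondrial chaperones tested. HSPD1, the mitochondrial chaperonin HSP60, had 616, 571 and 599 CPM in siNT and 315, 322 and 334 CPM in siMyc, with no overlap (log2 FC -0.88, SE 0.05). TRAP1, the mitochondrial HSP90, fell by 0.97 (SE 0.05), CCT3, of TRiC, by 0.61 (SE 0.04), and HSPB1, the small heat shock protein, rose by 0.19 (SE 0.05). Of 47 proteasome genes 27 fell and 0 rose (median -0.16), most deeply the assembly chaperone PSMG4 (-0.59, SE 0.07). In nuclear transport 44 of 58 genes fell and 0 rose (median -0.30), with the importin IPO4, which carries histones and ribosomal proteins, at -1.11 (SE 0.11) and the Ran cofactor RANBP1 at -0.65 (SE 0.05). In splicing 56 of 75 fell and 0 rose (median -0.26), where the arginine methyltransferase PRMT5 fell from 179 to 115 CPM and its cofactor WDR77 from 49.3 to 34.9 CPM.

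Cell-cycle genes fell in most cases, with smaller median falls than ribosome biogenesis and cytosolic ribosomal proteins. Of 62 DNA replication genes 52 fell and 1 rose (median -0.34), with 25 of 28 for licensing and the helicase and 27 of 34 at the fork. POLD2, a subunit of polymerase delta, fell by 0.77 (SE 0.05) and MCM10, which activates the helicase, by 0.71 (SE 0.06), and POLD4, the smallest subunit of the same polymerase, rose by 0.63 (SE 0.11). Of 72 mitosis genes 68 fell and 2 rose (median -0.32). KIF11, the kinesin that separates the spindle poles, had 170, 153 and 172 CPM in siNT and 92.9, 95.9 and 109 CPM in siMyc (log2 FC -0.73, SE 0.06), a fall that exceeded the spread of either arm. BUB1B, of the spindle checkpoint, fell by 0.66 (SE 0.06), and the 2 genes that rose were WEE1, the kinase that holds back mitotic entry (0.23, SE 0.06), and the phosphatase CDC25B (0.15, SE 0.05). SPC24 and STMN1 did not pass, at log2 FC of -0.17 and 0.01. At the G1/S boundary 19 of 25 cyclin, CDK and E2F genes fell and 1 rose, with CDC25A at -0.69 (SE 0.06) and SKP2, which degrades CDK inhibitors, at -0.61 (SE 0.06). Of 14 inhibitors and pocket proteins 6 rose and 1 fell: CDKN1C, the CDK inhibitor p57, had 6.86, 7.25 and 7.65 CPM in siNT and 13.4, 11.98 and 13.8 CPM in siMyc, nearly doubling without overlap (0.85, SE 0.09). CCNG2, an atypical cyclin of arrested cells, rose by 0.57 (SE 0.07). Of 50 DNA repair genes 37 fell and 0 rose (median -0.30), among them PARP1, from 256 to 171 CPM. The kinesin family, which shares its mitotic members with the mitosis list, had 15 lower and 6 higher of 38, and KIF5B, a transport motor, fell by 0.60 (SE 0.06).

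Energy metabolism did not move as 1 group. Of 21 glycolytic enzymes 11 fell and 1 rose. LDHA, lactate dehydrogenase A, had 2167, 2089 and 2226 CPM in siNT and 1281, 1351 and 1459 CPM in siMyc, far below siNT in each library (log2 FC -0.66, SE 0.05, edgeR adjusted p = 3.57e-09). PFKM, the muscle-type phosphofructokinase, fell by 0.83 (SE 0.06). Of 9 glucose and lactate transporters 4 rose and 1 fell, with SLC2A12 at 0.67 (SE 0.07) and SLC2A10 at 0.48 (SE 0.10). Of 79 nuclear genes of oxidative phosphorylation 15 fell, 3 rose and 61 did not pass (median -0.02), and the 19.0% that fell lie between the 13.9% of all genes and the 22.2% of genes of at least 1 CPM. ATP5MK and ATP5MC1, of the ATP synthase, were the deepest (-0.70 and -0.57). In mitochondrial import, by contrast, 18 of 31 fell and 0 rose (median -0.29), led by the pore protein TOMM40 (-0.69, SE 0.05). Of 28 amino acid transporters 9 rose and 7 fell. SLC7A2, a carrier of cationic amino acids that include arginine, had 28.01, 27.4 and 28.9 CPM in siNT and 12.2, 11.7 and 11.8 CPM in siMyc, tight in both arms and far apart (-1.24, SE 0.07), and SLC38A4, a neutral amino acid carrier, rose by 0.53 (SE 0.10). Over all 242 solute carriers, which include these families, 55 rose and 39 fell (median 0.06), with SLC22A18 at 0.69 (SE 0.08). These are 22.7% and 16.1%, against 20.9% and 22.2% of genes of at least 1 CPM.

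**Figure D3:**
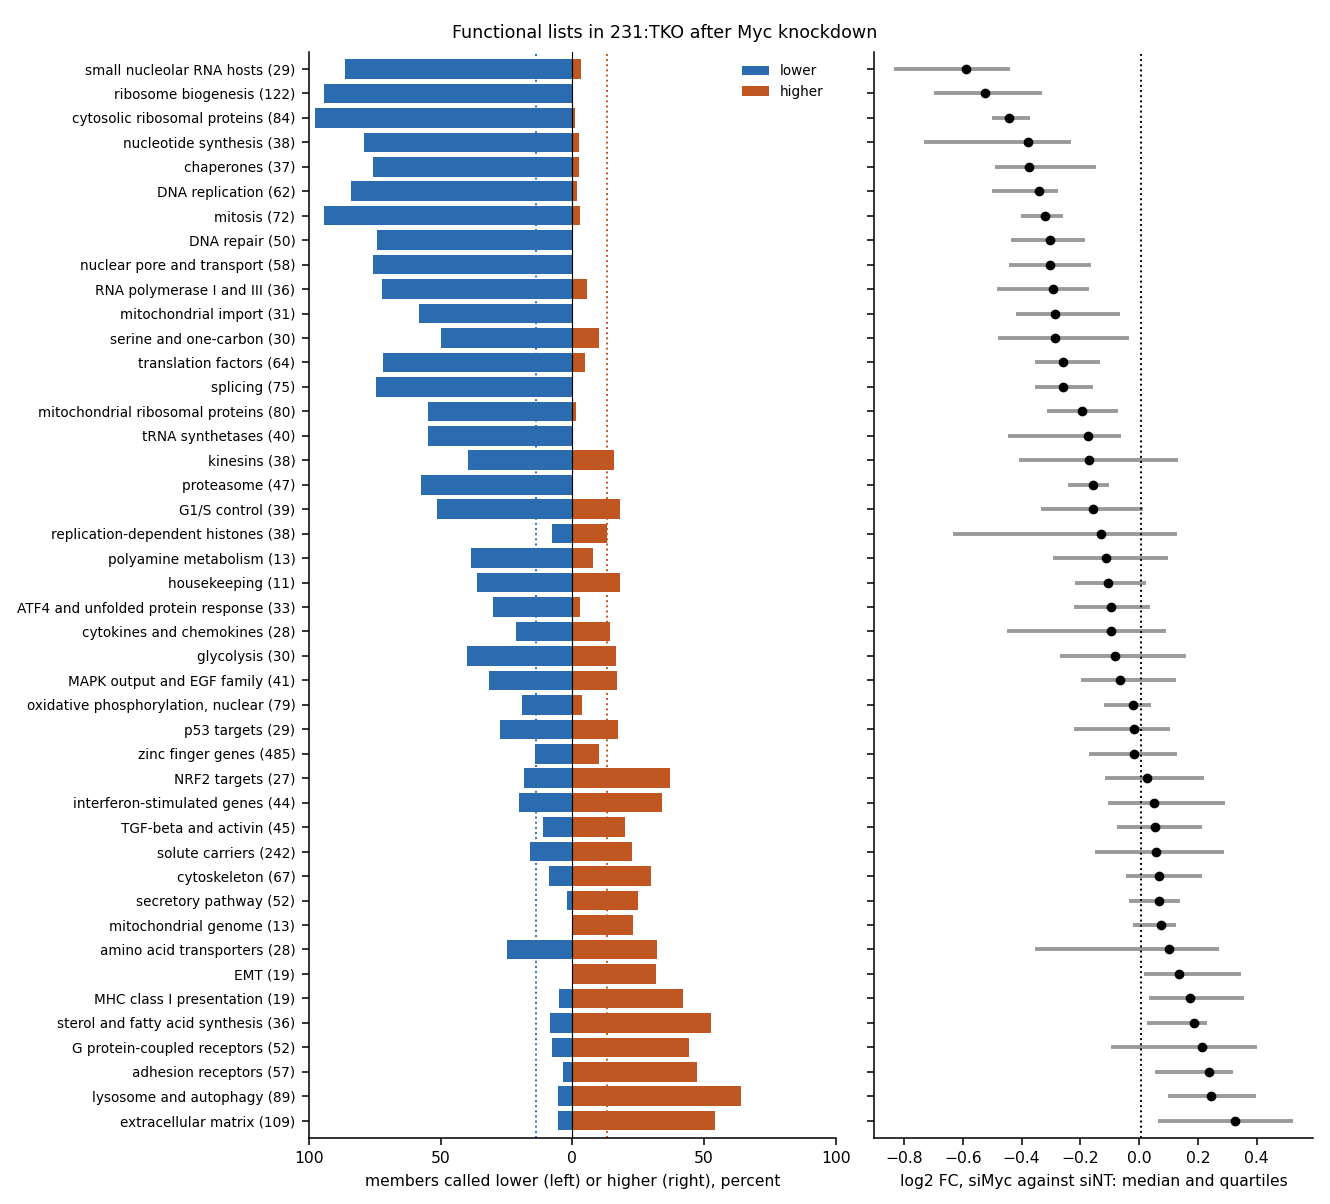
Share of tested members that fell or rose, in percent with dotted lines at the share of all genes, and the median log2 FC with quartiles, for 44 gene lists in 231:TKO. Ribosome biogenesis, ribosomal proteins and mitosis lie at the repressed end, and lysosome and autophagy, extracellular matrix and adhesion receptors at the induced end.

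Induction was broadest in lysosome, matrix, adhesion and sterol genes. Of 89 lysosome and autophagy genes 57 rose and 5 fell (median 0.24), and they went from 1.601% to 2.018% of all counts. The rise was widest in lysosomal enzymes and membrane proteins (33 of 43, median 0.33) and subunits of the proton-pumping V-ATPase (13 of 17, median 0.21), and 11 of 29 autophagy genes rose. CTSF, the cysteine protease cathepsin F, had 55.0, 64.2 and 53.7 CPM in siNT and 97.4, 92.7 and 89.6 CPM in siMyc, higher in each siMyc library than in any siNT library (log2 FC 0.69, SE 0.06). FUCA1 and ARSA, which remove fucose and sulfate from glycoconjugates, rose by 0.66 and 0.66, and MAP1LC3A, a coat protein of autophagosomes, by 0.71. ATP6V0A2, a V-ATPase subunit of the Golgi, and the sulfatase ARSB fell by 0.42 and 0.33. Of 24 sterol genes 14 rose and 1 fell, with TM7SF2 and MSMO1, late enzymes of cholesterol synthesis, at 0.87 (SE 0.08) and 0.55 (SE 0.05). Of 12 fatty acid genes 5 rose and 2 fell, and ACSS2, which makes acetyl-CoA from acetate, went from 89.1 to 146 CPM.

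Of 109 extracellular matrix genes 59 rose and 6 fell (median 0.33), which took their share of reads from 1.47% to 1.81%. FN1, fibronectin, had 501, 528 and 518 CPM in siNT and 837, 853 and 837 CPM in siMyc (log2 FC 0.71, SE 0.04, edgeR adjusted p = 3.18e-10). HSPG2, the basement membrane proteoglycan perlecan, had 178, 186 and 176 CPM and then 346, 322 and 278 CPM (0.81, SE 0.06), with a wider spread after siMyc but no overlap. Collagens rose in 16 of 27 (median 0.39), glycoproteins and proteoglycans in 23 of 38 (median 0.39), collagen-modifying enzymes in 7 of 16 and proteases and their inhibitors in 13 of 28. COL1A2, a fibrillar collagen chain, rose by 1.51 (SE 0.25) from a low level, 0.531 to 1.51 CPM, and ADAM12, a metalloprotease, fell by 1.05 (SE 0.22). Of 57 adhesion genes 27 rose and 2 fell (median 0.24): 10 of 18 integrins and 7 of 10 laminins rose and 0 of either fell. ITGB3, the beta-3 integrin, had 9.20, 9.93 and 9.22 CPM in siNT and 19.0, 18.2 and 19.0 CPM in siMyc, a near doubling with little spread (0.99, SE 0.08). The 2 that fell were GJB2, a connexin (-0.23, SE 0.06), and the large cadherin FAT1 (-0.16, SE 0.05). Actin and myosin genes rose in 15 of 42, among them MYLK, myosin light chain kinase, from 131 to 205 CPM, and GSN, the actin-severing protein gelsolin, from 651, 705 and 626 to 1072, 1064 and 968 CPM. Of 32 genes of the COPI and COPII coats of secretory vesicles 11 rose and 0 fell, and SSR1, a subunit of the translocon-associated complex, fell from 276 to 179 CPM.

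Receptors and signaling genes were split. Of 52 G protein-coupled receptors 23 rose and 4 fell (median 0.21), most at a low level. OXTR, the oxytocin receptor, had 1.96, 1.61 and 1.26 CPM in siNT and 5.46, 5.01 and 5.74 CPM in siMyc, and was the gene that rose furthest of those with a mean of at least 1 CPM (log2 FC 1.75, SE 0.15). GPRC5C, an orphan receptor, rose by 0.61 (SE 0.07) from 51.5 to 78.4 CPM, and P2RY11, a receptor for ATP, fell by 0.82 (SE 0.11). Of 41 genes of MAPK output and the EGF family 13 fell and 7 rose. These are 31.7% and 17.1%, against 22.2% and 20.9% of genes of at least 1 CPM. The immediate early factor EGR1 fell by 0.78 (SE 0.17), the ligand EREG by 0.37 (SE 0.08), and the receptor ERBB3 rose by 0.53 (SE 0.10). Of 45 TGF-beta and activin genes 9 rose (20.0%, near the 20.9% of genes of at least 1 CPM) and 5 fell, with TGFB2 at 0.47 (SE 0.06). Of 29 p53 targets 8 fell and 5 rose, 27.6% and 17.2%, near the 22.2% and 20.9% of genes of at least 1 CPM. MDM2, which degrades p53, fell from 45.2 to 26.4 CPM (-0.77, SE 0.07) and the death receptor TNFRSF10B from 176 to 108 CPM, and TP53INP1 rose from 21.1 to 39.0 CPM (0.88, SE 0.06). Of 33 ATF4 and unfolded protein response genes 10 fell and 1, the stress regulator NUPR1, rose (0.88, SE 0.18), and without siNT replicate 2, siMyc replicate 1 or siMyc replicate 2 the number that fell was 4, 6 and 5. Of 27 NRF2 targets 10 rose and 5 fell.

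Immune genes moved in both directions. Of 19 genes of MHC class I presentation 8 rose and 1 fell. HLA-C, HLA-E and HLA-F rose by 0.42, 0.43 and 0.53, and TAP2, a subunit of the peptide transporter, fell by 0.50. HLA genes are similar in sequence, and their counts are uncertain as far as reads fit several of them. Of 44 interferon-stimulated genes 15 rose and 9 fell (median 0.05). As shares, 34.09% rose and 20.45% fell, against 20.9% and 22.2% of genes of at least 1 CPM, so the falls were no more frequent than there. STAT2, a transducer of the interferon signal, had a log2 FC of 0.70 (SE 0.06) and USP18, a brake on it, one of -0.77 (SE 0.13). Of 28 cytokines and chemokines 6 fell and 4 rose. These are 21.4% and 14.3%, no more than the 22.2% and 20.9% of genes of at least 1 CPM. The growth factor CSF2 went from 17.7 to 8.21 CPM (-1.10, SE 0.11), CX3CL1 from 33.3 to 18.2 CPM (-0.87, SE 0.08) and IL1B from 2.72 to 5.76 CPM (1.09, SE 0.15). Of 19 EMT genes 6 rose and 0 fell, 3 of 8 on the mesenchymal and 3 of 11 on the epithelial side, including both SNAI2 (0.39, SE 0.07) and KRT19 (0.49, SE 0.06).

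Other classes changed little or depended on single libraries. Of 485 zinc finger genes 69 fell and 49 rose (median -0.02), 14.2% and 10.1% of the list, and the number that fell was 41 without siNT replicate 1 and 45 without siMyc replicate 2. Of the 13 protein genes of the mitochondrial genome 3 rose and 0 fell, and 5, 1 and 1 rose without siNT replicates 1, 2 and 3. Of 38 replication-dependent histone genes 5 rose and 3 fell, and 3 rose without siNT replicate 1, siNT replicate 2 or siMyc replicate 2. Such transcripts mostly lack the poly(A) tail that the library kit captures. Among 11 genes often used as references HPRT1 fell by 0.54 (SE 0.07) and GAPDH by 0.27 (SE 0.05), B2M rose by 0.31 (SE 0.05), and ACTB had a log2 FC of -0.03 (SE 0.04). By gene type, 18.8% of 14685 protein-coding genes rose and 19.1% fell, against 3.53% and 3.33% of 4595 long non-coding RNAs.

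The steepest changes were spread over many functions. Among genes with a mean of at least 1 CPM the deepest fall was that of VPS9D1-AS1, a long non-coding RNA (log2 FC -2.60, SE 0.15), which lies antisense to VPS9D1. TAF4B, a TFIID subunit with a role in germ cells, had 16.3, 17.1 and 17.0 CPM in siNT and 4.28, 4.65 and 4.84 CPM in siMyc, the next fall in order (-1.87, SE 0.09). FAM216A, LRRC8B, a subunit of volume-regulated anion channels, AGMAT, STEAP1, a metalloreductase, RBPMS2 and FERMT1, an activator of integrins, fell by 1.26 to 1.63. SNHG4, SNHG15 and SNHG25, which are hosts of small nucleolar RNAs, were in the same range. On the other side OLFML3, a secreted matrix protein, rose from 0.741 to 2.26 CPM and SHC2, an adaptor of receptor kinases, from 3.79 to 10.9 CPM. ST6GALNAC2, B3GNT7 and B3GALT4, 3 glycosyltransferases of the Golgi, rose by 1.49, 1.48 and 1.44, and PSG9 and PSG5, pregnancy-specific glycoproteins with close paralogs, by 1.45 and 1.36. Among genes of at least 100 CPM the deepest fall was that of HIPK2, a nuclear kinase, from 229, 215 and 235 CPM to 103, 107 and 110 CPM (-1.09, SE 0.05). C1QBP, a mitochondrial matrix protein, fell from 244 to 125 CPM. DKK1, a secreted inhibitor of Wnt signaling, rose from 99.1, 87.4 and 92.2 CPM to 179, 168 and 163 CPM (0.87, SE 0.06), the furthest at that level. YPEL5 rose by 0.70 and MAGED2 by 0.67. Some named genes overlap a neighbor on the same strand, as C1QBP does DHX33, P2RY11 does PPAN, MRPS6 does SLC5A3 and TM7SF2 does VPS51, and their values are uncertain as far as the counting divided reads between them. Of the 12 deepest falls 8 had a promoter in the table and 1, TAF4B, held CACGTG upstream, as did 1 of the 8 among the 12 largest rises, OPRL1.

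The size of the effect was set against expression level, in CPM per kb of exon so that genes of different length can be compared. The share of genes called rose with level, from 2.25% of 4899 genes below 0.1 CPM per kb to 13.3% of 5967 up to 1, 39.8% of 6997 up to 10, 51.6% of 4232 up to 100 and 64.2% of 355 genes at or above 100. Over the same steps the median size of the change among called genes fell from a log2 value of 1.74 to 0.68, 0.35, 0.28 and 0.29, and the median standard error of all genes fell from 0.97 to 0.32, 0.08, 0.06 and 0.05. Calling followed the standard error: of genes with an estimate past 0.5 in either direction, 3.95% were called in the lowest class, 27.5%, 88.5% and 98.5% in the next ones, and all 26 of them in the highest. At 10 to 100 CPM per kb 13 called genes changed by 1 or more, against 0 at or above 100 and 50 at 1 to 10. Among the most abundant genes, RPS2 at 365 CPM per kb and LDHA at 292 CPM per kb had falls of 0.76 and 0.66, whereas GAPDH at 1103 CPM per kb fell by 0.27 and ACTB at 1172 CPM per kb had a log2 FC of -0.03.

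Balance between directions also shifted with level. Below 0.1 CPM per kb 1.51% rose and 0.735% fell, at 0.1 to 1 these were 8.45% and 4.89%, at 1 to 10 they were 19.0% and 20.9%, at 10 to 100 they were 23.1% and 28.5%, and at or above 100 they were 28.7% and 35.5%. Among the called genes at or above 100 CPM per kb, those that fell had a median of -0.36 and those that rose a median of 0.24. Ribosomal proteins made up 49 of the 355 genes there, all 49 fell, and their median was -0.46. Of the other 306, 102 rose and 77 fell, with a median of 0.04 over all of them and of -0.25 among those that fell. Across the 11584 genes of at least 1 CPM per kb, Spearman's rho of level with the size of the change was -0.06, and it was -0.20 over the 2791 that fell and -0.37 over the 2409 that rose. These correlations are across genes that share the 6 libraries and their depth, and genes are not independent replicates.

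**Figure D4:**
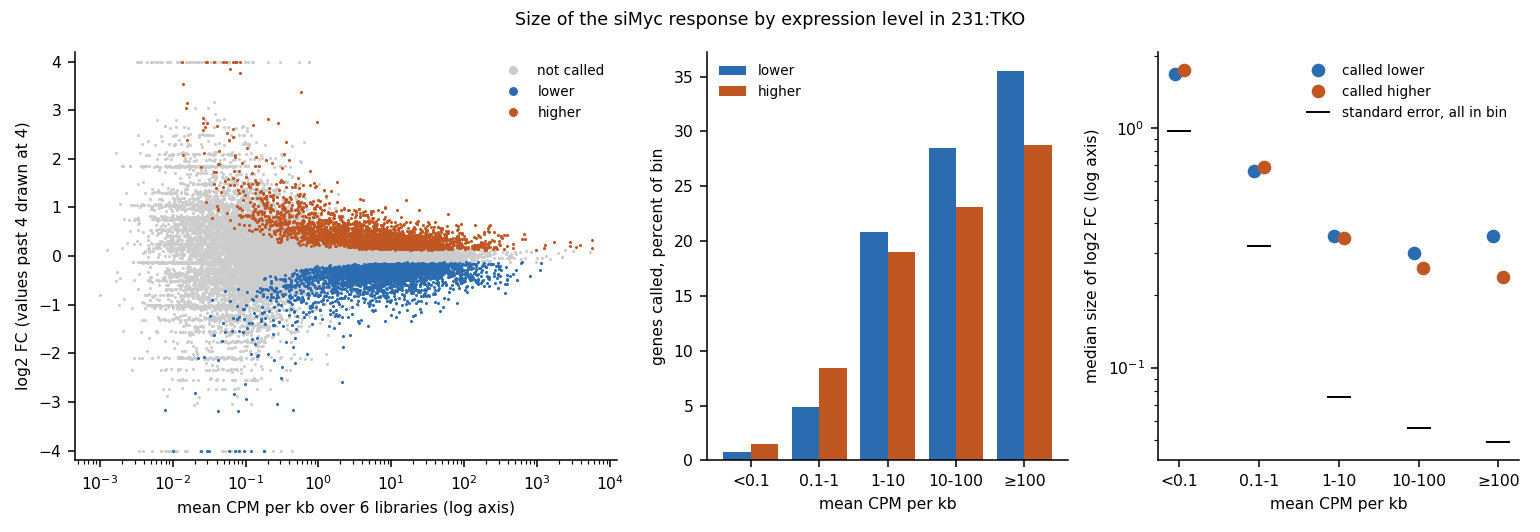
Effect of siMyc against expression level in 231:TKO. The log2 FC of each gene is plotted over its mean level in CPM per kb on a log axis, beside the percent of genes called and the median size of called changes and of the standard error in 5 level classes. The share called climbs from 2.25% to 64.2% as the median standard error falls from 0.97 to 0.05.

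The response was then compared with that of parental 231 cells, which asks whether the knockout changes what MYC knockdown does. In parental cells MYC went from 123.1 to 63.3 CPM (log2 FC -0.96, SE 0.04, with the term described next, and -1.004, SE 0.05, without the 2 libraries that stood apart). MYC thus fell somewhat further in 231:TKO, by a difference of -0.22 (SE 0.08) with the term. It was -0.24 (SE 0.09) without those libraries, and neither fit called it. With no further term, edgeR called 0.594% of 23728 genes in a fit of the parental libraries alone. Over all 12 libraries it called 0.0% of 25812 genes for the difference of the responses, 0 at the adjusted threshold against 1039 with an unadjusted p under 0.05. DESeq2 called 6 for the difference. The 2 parental libraries that stood apart widened the spread in both fits. The biological coefficient of variation was 15.5% in the parental fit and 11.7% in the fit of 12 libraries, against 5.26% in 231:TKO. With a term for these 2 libraries the parental coefficient was 4.5% and 26.8% of genes were called in parental 231 (13.7% higher and 13.1% lower). Without them it was 4.74% and 20.8% were called (9.94% higher and 10.9% lower). Both handlings were chosen after the data were seen, and the parental libraries were counted separately from those of 231:TKO, on another annotation release, so that the populations and any difference in how their libraries were handled cannot be told apart.

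With the term, 4414 genes were called in both populations, which is 72.5% of the 6089 called in 231:TKO and 70.0% of the 6305 called in parental 231 among genes tested in both. They moved the same way in 4409 cases and in opposite ways in 5. Without the 2 libraries 3670 were shared, 60.4% of the 231:TKO calls and 79.1% of the parental ones. Genes that fell in 231:TKO had a median log2 FC of -0.35 there and -0.27 in parental 231, and genes that rose had 0.35 and 0.25, a description since the calls that chose them were made in 231:TKO.

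The difference of the responses itself was called in 147 genes with the term, 0.57% of those tested, and in 63 without the 2 libraries, 0.252%. Of the 147, 38 had fallen in 231:TKO, all with the larger fall there, and 85 had risen, all with the larger rise there, a direction that the call in 231:TKO favors. Of the 63, 31 had fallen and 15 had risen, again each with the larger change there, so which side was the larger depended on how the 2 libraries were handled. Over all genes called, the response was higher in 231:TKO for 102 and lower for 45 with the term, and higher for 25 and lower for 38 without the libraries. The values that follow are with the term unless said otherwise. Ribosome genes were among the first group: BYSL had a log2 FC of -1.08 in 231:TKO and -0.62 in parental 231, a difference of -0.43 (SE 0.08, edgeR adjusted p = 0.000594), and NPM3 had -1.15 and -0.64, a difference of -0.48 (SE 0.10). Without the 2 libraries these differences were -0.47 (SE 0.09) and -0.47 (SE 0.11). Over the ribosome biogenesis list 6 of 122 genes differed, all toward a deeper fall in 231:TKO, where the median was -0.53 against -0.39, and 6 differed without the 2 libraries as well, with a parental median of -0.40. Of 84 ribosomal proteins 2 differed, RPL22L1 and RPL32, and the medians were -0.44 and -0.30, against 3 that differed and -0.29 without the libraries. For mitosis 0 of 72 and for DNA replication 0 of 62 differed, with medians of -0.32 against -0.35 and -0.34 against -0.37, and 0 of either without the libraries. LDHA differed by -0.32 (SE 0.07), with a log2 FC of -0.66 against -0.32, and HIPK2 by -0.39 (SE 0.08), which became -0.40 (SE 0.08) and -0.38 (SE 0.09) without the libraries. On the induced side FN1 differed by 0.36 (SE 0.07), with 0.71 against 0.38 (0.33, SE 0.08, without the libraries), and PSG9 by 0.72 with the term, a call that was lost without the 2 libraries. Of 44 interferon-stimulated genes 26 rose and 1 fell in parental 231 with the term, against 15 and 9 in 231:TKO. With the term 3 of them differed, and without the 2 libraries 6 did, all lower in 231:TKO, and the median difference went from -0.09 to -0.25.

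**Figure D5:**
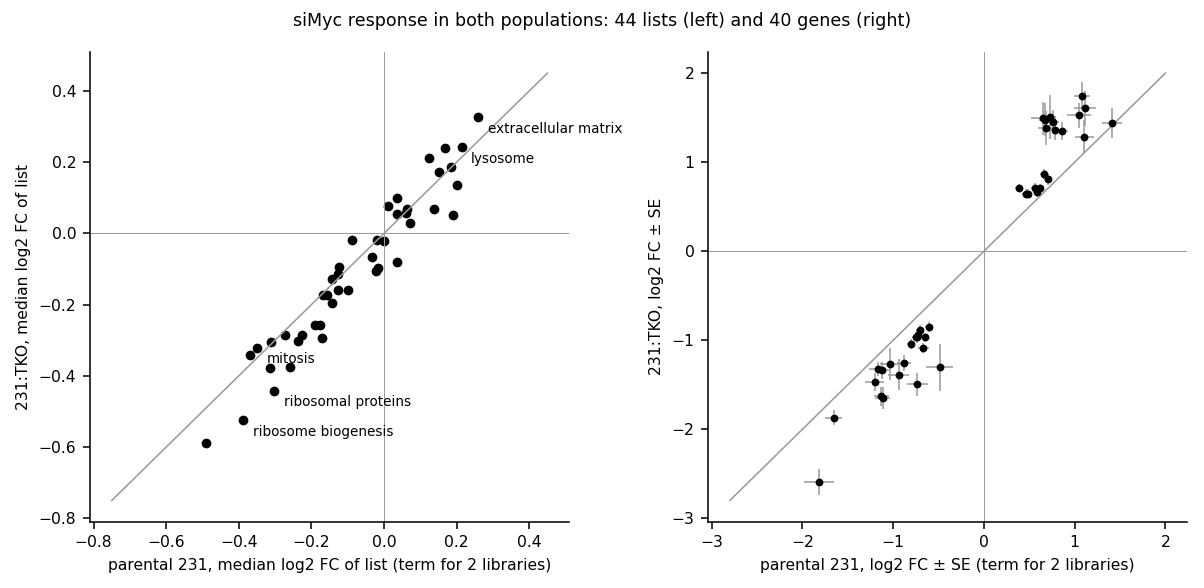
Response to siMyc in 231:TKO against that in parental 231, with a term for the 2 parental libraries that stood apart and a line where both are equal. Left, median log2 FC of 44 gene lists, where ribosome biogenesis lies below the line at -0.53 against -0.39. Right, log2 FC ± SE of the genes with the largest changes in 231:TKO, chosen on that axis.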

How the data were processed

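Poly(A) RNA of 231:TKO and parental 231 cells, 48 hours after siRNA, was sequenced from libraries made with a stranded mRNA kit. The deposited values are counts of reads per gene, 1 table per library, which the authors made by aligning to GRCh38 with STAR and counting by strand with featureCounts 1.6.3 on Ensembl genes, each read going to the gene it overlapped most, and 67.7% of 60675 identifiers carried a symbol. The counts were used as deposited. Libraries were grouped by their labels. Genes whose counts over the 6 libraries added up to more than 5 went into edgeR 4.0.16 (R 4.3.3), quasi-likelihood, TMM scaling, Benjamini-Hochberg adjusted p of at most 0.05, with siMyc against siNT and, over 12 libraries, the difference of the responses. DESeq2 1.42.0 was an alternative. The pipeline was tested on simulated data. A count of 0 allows up to 0.0756 to 0.0946 CPM (3 counts), a limit for counting error only.

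Named genes were those of the Myc network, the 12 largest changes each way at a mean of at least 1 CPM and the 8 each way at 100 CPM without overlap of the arms, up to 4 called members of each list in its main direction and 2 in the other, and the rest where 5 or fewer were not called. Some genes that this rule names are not reported here. The members and lists were chosen with earlier results of these data known, and lists share genes. The symbols of 13162 of 22413 tested genes matched RefSeq promoters of GRCh38.p14.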

Additional observations from a re-analysis of the deposited data

Results flagged for a closer look

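The response to siMyc differed between 231:TKO and parental 231 in 11 of the named genes by edgeR's test of the difference itself, both with a term for the 2 parental libraries that stood apart and without those libraries. The differences below, 231:TKO minus parental 231 on the log2 scale, are from the fit with the term, and edgeR called 0 of them when the 2 libraries were left in with no term. Deeper falls in 231:TKO were seen for the ribosome factors NPM3 (-0.48), BYSL (-0.43) and WDR3 (-0.34), the ribosomal protein genes RPL22L1 (-0.35) and RPL32 (-0.28), the kinase HIPK2 (-0.39), CTP synthase CTPS1 (-0.37), LDHA (-0.32) and the mitochondrial protein C1QBP (-0.29). PPP1R15A, a phosphatase subunit of the stress response, fell in 231:TKO and had a positive log2 FC of 0.09 in parental 231 that did not pass the test (difference -0.36). Fibronectin, FN1, had the larger rise in 231:TKO (0.36). MYC itself had a log2 FC of -1.21 in 231:TKO and -0.96 in parental 231 (difference -0.22, SE 0.08, not called). Whether the depth of the knockdown has a part in these differences was not tested. The populations were counted separately, on different annotation releases, and 231:TKO comes from clones grown out of single cells. The knockout, the clonal origin and any difference in how the libraries were handled therefore cannot be told apart.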

How the results depend on the processing

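Calls for 231:TKO numbered 5416 to 6829 with DESeq2, its size factors, library totals, other count filters, thinning to equal depth and a replicate block, and leaving out 1 library gave 2197 to 3316 higher and 2436 to 3607 lower. With library totals 51.3% of calls were higher, against 48.9%. One fit of 12 libraries gave 1363 higher and 1130 lower, or 3643 and 2855 with a term for the 2 parental libraries that stood apart, and a size of at least 0.5 left 823 and 816. With the replicate block 3363 genes were higher and 3466 lower. Libraries with the same number had correlations of -0.13, 0.09 and 0.23, and those with different numbers had -0.29 to 0.27. With 3 libraries an arm these values cannot decide whether libraries of the same number were paired. The difference between populations was called in 6 genes by DESeq2, 147 with the term and 63 without the 2 libraries, and parental calls were then 3250 higher and 3113 lower, or 2231 and 2442. The causes were not tested.

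Leaving out 1 library moved these list medians: Myc network 0.0085 to 0.0813, RNA polymerase I and III -0.32 to -0.27, polyamines -0.16 to -0.11, G1/S -0.17 to -0.13, mitochondrial import -0.30 to -0.24 (-0.28 with library totals), amino acid transporters 0.0762 to 0.17, interferon-stimulated genes 0.0387 to 0.0975, p53 targets -0.0718 to 0.0141, secretory pathway 0.0408 to 0.0777, solute carriers 0.0368 to 0.0968, kinesins -0.23 to -0.12, small nucleolar RNA hosts -0.68 to -0.60, G protein-coupled receptors 0.19 to 0.26, histones -0.14 to -0.0053, reference genes -0.15 to -0.051, ATF4 and unfolded protein response -0.18 to -0.0003, MHC class I 0.11 to 0.25, cytokines -0.23 to -0.0409, glycolysis -0.15 to -0.0421, mitochondrial genome 0.0273 to 0.13, oxidative phosphorylation -0.0336 to -0.0075, zinc fingers -0.0333 to -0.0099 and extracellular matrix 0.28 to 0.31. With all 6 libraries the Myc network, small nucleolar RNA host and extracellular matrix medians were 0.0928, -0.59 and 0.33, outside these ranges. Each such fit applied the count filter anew, so members with few counts could drop out of a list.

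From the lowest to the highest level class the percent called was 1.01, 5.69, 30.9, 45.3 and 55.3 in classes of CPM not divided by length, where the median sizes of the first 3 were 4.37, 1.19 and 0.53. Thinned libraries gave 1.36, 9.24, 35.3 and 49.9 in the first 4 classes and DESeq2 0.388, 8.33 and 37.7 in the first 3. Promoters of genes with 1 listed start, an alternative added after the data were seen, held CACGTG in 9.59% of genes that rose and 9.12% not called, and CANNTG was in 59.5%, 63.1% and 63.7% of promoters of genes that fell, rose or were not called. Of the 290 named genes 5 lost their call under DESeq2, namely IFI44L, CDH3, COPZ2, S1PR1 and H4C8, 1 with library totals, MGA, 0 with the block, 10 with thinned libraries, 21 at an adjusted p of at most 0.01, 63 in the fit of 12 libraries and 91 with a size of at least 0.5. Leaving out each library in turn lost a call in 77 cases. Depth limits the lowest level class, where the median standard error was 0.97.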

Other observations

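Gene families beyond the lists above were looked at after the values were seen, so no more than their values is given, for protein-coding genes. Over all protein-coding genes 18.8% rose and 19.1% fell, the background for each family in this section. Of 9 tested pregnancy-specific glycoprotein genes, a placental family of close paralogs, 5 rose and 0 fell (median log2 FC 1.04). Counts of this family are uncertain as far as reads fit several of its genes. PSG4 was the most abundant of those described, rising from 14.3 to 32.3 CPM (1.18, SE 0.07), and PSG1 rose by 1.04 (SE 0.11). Of 16 sialyltransferases, which cap glycans with sialic acid, 7 rose and 1 fell (median 0.17), among them ST3GAL5, the entry enzyme of gangliosides, from 26.6 to 40.7 CPM (0.61, SE 0.07), and ST8SIA1, which adds the next sialic acid (0.82, SE 0.20). ST6GALNAC4 fell by 0.43 (SE 0.08). Of 70 other Golgi glycosyltransferases 17 rose and 9 fell (median 0.06).

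Of 51 protein-coding DEAD- and DEAH-box helicase genes 25 fell and 2 rose (median -0.17), and those that rose were the antiviral pair DDX60 (0.36, SE 0.05) and DDX60L (0.25, SE 0.06). DHX33, a nucleolar member of the family, fell from 58.6 to 33.0 CPM (-0.83, SE 0.06). Of 44 mitochondrial carriers of the SLC25 family 13 fell and 4 rose (median -0.09), with the pyrimidine nucleotide carrier SLC25A33 at -0.76 (SE 0.07) and the citrate carrier SLC25A1 at 0.47 (SE 0.06).

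Outside the rule for named genes, the response of several genes differed between the populations in both edgeR fits that handle the 2 parental libraries that stood apart, and they are named here after their values were seen. BZW2, a regulator of translation initiation, had a log2 FC of -1.21 in 231:TKO and -0.55 in parental 231 (difference -0.63, SE 0.08, edgeR adjusted p = 1e-07). PUS7, a pseudouridine synthase, had -1.02 and -0.39 (difference -0.60, SE 0.10). HK2, hexokinase 2, fell in 231:TKO (-0.42, SE 0.06) and had a log2 FC of 0.01 (SE 0.04) in parental 231 (difference -0.40, SE 0.07). CCN2, a matrix-associated growth factor, showed the converse, with 0.00 (SE 0.05) in 231:TKO and a rise of 0.42 (SE 0.05) in parental 231 (difference -0.38, SE 0.07).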
